A study of Homo sapiens with 12 samples.

Results

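The 49 genes whose symbols start with PSMA to PSMG followed by a digit were described in A549 cells, out of 19550 genes in the tables of exonic reads. A549 is an established human lung adenocarcinoma line. RNA was sequenced from 12 libraries, 3 biological replicates in each of 4 conditions. Cells carried a control short hairpin RNA (shControl) or a hairpin against RNF113A (shRNF113A), and were untreated or received Cisplatin, a platinum drug that damages DNA. The labels give 25 µg/ml for 20 h. The study's methods give 25 µM for its cell death assays and no dose for the sequenced cells, so the unit is uncertain. All of the sequenced cells had been infected with lentiviruses and selected with puromycin, so no parental cells stand beside them. The labels do not say which hairpin construct was used, and other effects of a construct cannot be told apart from loss of the gene. The questions were whether the drug, the depletion and their combination changed the level, the intronic reads or the splicing of these genes.

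The proteasome is the protease that degrades proteins marked with ubiquitin. Its core particle is a barrel of stacked alpha and beta rings whose beta subunits cut the substrate. The regulatory particle at its ends holds a ring of ATPases, which unfold the substrate, and non-ATPase subunits, which bind ubiquitin and remove it. Interferon induces alternative catalytic subunits (the immunoproteasome) and the activator PA28, and dedicated chaperones assemble the particles. Since cells need the complex in fixed proportions, its genes are known to be expressed together. RNF113A is a zinc finger protein with an E3 ubiquitin ligase domain that belongs to the spliceosome.

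By role, the 49 genes comprise 8 of the alpha ring, 7 of the beta ring, 4 alternative catalytic subunits of the immunoproteasome and thymoproteasome, 6 ATPases and 11 non-ATPases of the regulatory particle, 7 assembly chaperones and 5 activators or inhibitors. The remaining gene, PSMC3IP, shares the symbol pattern but encodes a partner protein of meiotic recombinases and not a subunit. Of the 49, 47 passed the filter on low counts and were tested among 15352 genes. PSMA8 and PSMB11, the testis and thymus forms of a core subunit, did not pass.

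The targeted gene was measured first. RNF113A was at 20.3, 19.5 and 19.8 CPM (read counts scaled to library size with edgeR's TMM factors) in untreated shControl cells and at 15.3, 15.8 and 16.8 CPM in untreated shRNF113A cells. The depleted libraries were lower without overlap, with a log2 change of -0.31 (adjusted p = 0.0247, edgeR's quasi-likelihood test with Benjamini-Hochberg adjustment over all genes tested, as for every expression value that follows). With Cisplatin the levels were 31.5, 28.9 and 27.7 against 25.8, 24.3 and 29.9 CPM, which overlapped, and the difference did not pass the test (log2 -0.14, adjusted p = 0.233). In bulk libraries a lower level in every cell and a loss in a share of the cells cannot be told apart. Libraries held 33859097 to 56071514 read pairs, and the 3 shRNF113A libraries with Cisplatin were the smallest. These 3 also had the most reads not assigned to a gene, within a range of 13.975% to 22.6% over all 12. Such reads may be unmapped, mapped to several places, ambiguous or outside genes. Of 5 epithelial markers, given in CPM by library size without TMM, the keratins KRT8 and KRT18 were abundant in every library (1479 CPM or more), CDH1 lay between 32.7 and 198 CPM, and KRT19 between 0.692 and 5.14 CPM. EPCAM averaged 10.1 and 5.35 CPM in untreated and treated shControl cells but 89.8 and 48.2 CPM in shRNF113A cells, and the part of this difference in the results was not tested. On the same scale NKX2-1, the lung lineage factor, did not exceed 0.617 CPM.

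Nearly all subunits of the constitutive particle were among the most abundant transcripts of these cells. On the scale of exonic CPM divided by the exon length in kilobases, averaged over the 12 libraries, 36 of the 49 genes lay above the 90th percentile of all genes, whose median was 2.31. The beta ring had the highest median of any role (213), followed by the alpha ring (170), the ATPases (113) and the non-ATPases (92.5). PSMB4, a non-catalytic beta subunit, was the highest member at 323, and PSMB6, which carries the caspase-like activity, stood at 298. The chaperones were lower as a role (median 24.4). Among the alternative catalytic subunits, PSMB8 reached 22.3, PSMB10 20.9 and PSMB9 12.4, whereas PSMB11 was at 0.00693 and PSMA8 had no exonic read.

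**Figure D1:**
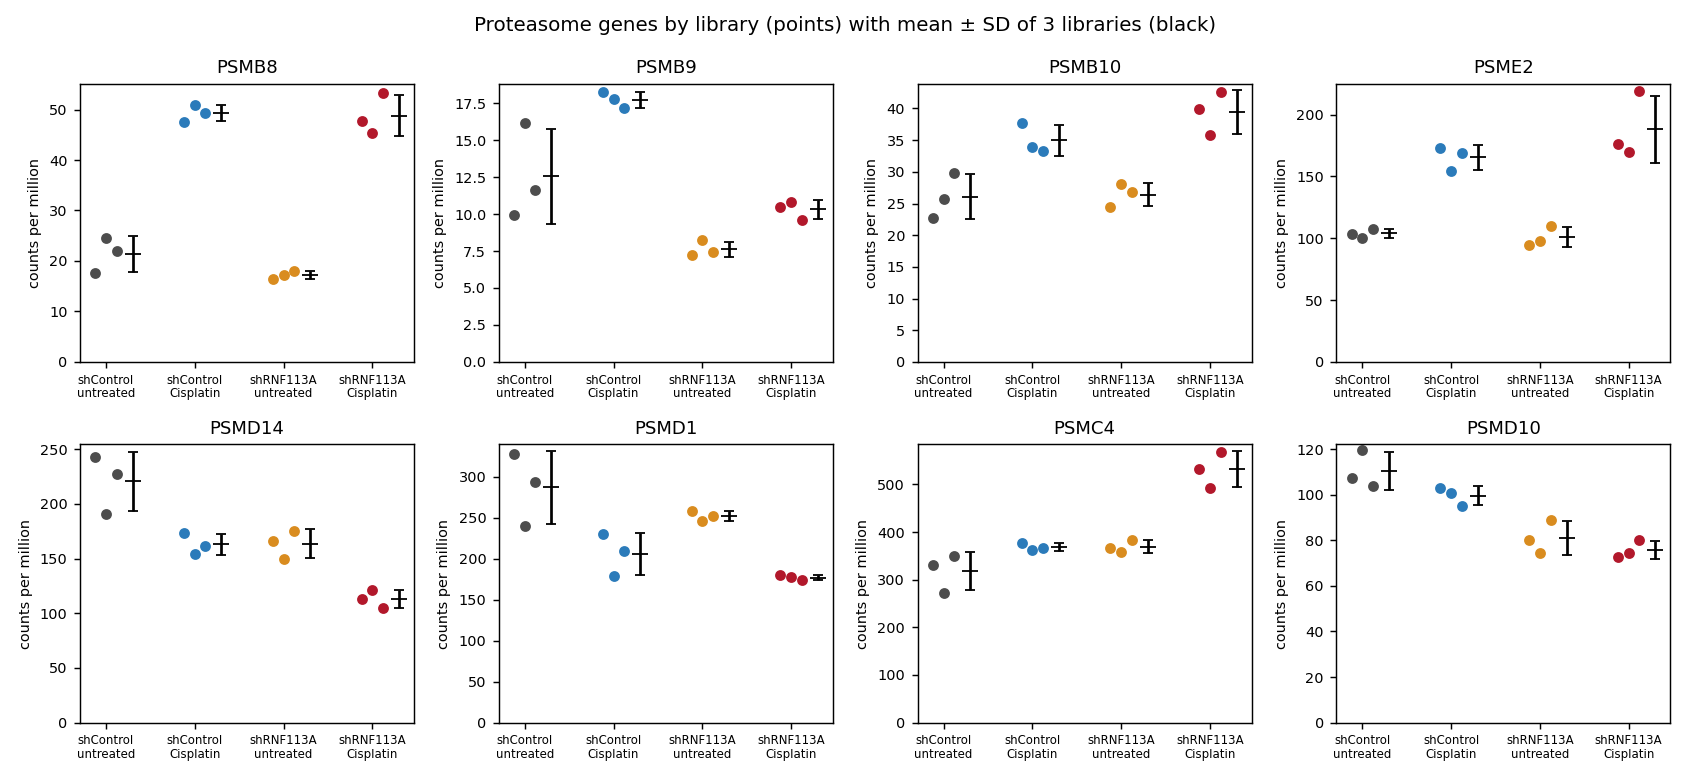
Level of 8 members in each of the 12 libraries, in CPM on axes that start at 0, with 1 coloured point per library and the mean ± SD of each condition in black. PSMB8 lies between 16.4 and 24.6 CPM without Cisplatin and between 45.3 and 53.3 CPM with it, and PSMC4 is highest in the 3 shRNF113A libraries with Cisplatin.

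Cisplatin raised some members and lowered others. Across both backgrounds 17 of the 47 rose and 11 fell, that is 36.2% and 23.4% of the members, where 34.8% of all genes rose and 32.1% fell. The median log2 change was 0.05 over the members and 0.03 over all genes tested. With scaling on library size alone, 23 rose and 7 fell (40.6% and 26.9% of all genes), and the medians were 0.15 and 0.13. PSMB8 was the 1 member past a 2-fold rise, a limit that 10.3% of all genes passed.

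All 3 alternative catalytic subunits that were tested rose. PSMB8, which replaces the chymotrypsin-like subunit, was at 17.5, 24.6 and 22.1 CPM in untreated shControl cells and at 47.6, 50.8 and 49.3 CPM with Cisplatin. In shRNF113A cells it went from 16.4, 17.2 and 18.0 CPM to 47.7, 45.3 and 53.3 CPM. In both backgrounds the treated libraries stood well above the untreated ones, and the log2 change over both was 1.35 ± 0.09 (SE, adjusted p = 2.29e-08). PSMB10, which replaces the trypsin-like subunit, rose by 0.50 ± 0.08 (adjusted p = 8.1e-05), from 22.7, 25.7 and 29.8 to 37.7, 33.9 and 33.3 CPM in shControl cells and from 24.5, 28.0 and 26.8 to 39.9, 35.8 and 42.7 CPM in shRNF113A cells. PSMB9, which replaces the caspase-like subunit, rose by 0.47 ± 0.11 (adjusted p = 0.00157). PSMB8 (hg19 chr6:32808494-32812480, minus strand) and PSMB9 (chr6:32811913-32827362, plus strand) overlap at one end, and the counts used follow the strand of the gene.

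Among the 5 activators and inhibitors, 3 rose and none fell. PSME2, the beta subunit of PA28, was at 104, 100.4 and 108 CPM in untreated and 173, 154 and 169 CPM in treated shControl cells. The shRNF113A cells gave 94.9, 97.8 and 110.0 CPM without and 176, 169 and 219 CPM with the drug. Thus no treated library overlapped an untreated one, with a log2 change of 0.78 ± 0.08 (adjusted p = 8.26e-07). Its partner PSME1, the alpha subunit of PA28, rose by 0.26 (adjusted p = 0.00543).

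Of the 6 ATPases of the regulatory particle, 3 rose and none fell. PSMC4 rose by 0.37 ± 0.08 (adjusted p = 0.000799) and PSMC3 by 0.31 ± 0.06 (adjusted p = 0.00035). The 11 non-ATPases split evenly, with 4 up and 4 down. PSMD1, a large scaffold subunit, was at 328, 240.3 and 294 CPM in untreated and 229.8, 179 and 209.5 CPM in treated shControl cells, against 259, 247 and 252 and then 179.7, 178 and 174 CPM in shRNF113A cells. It had the largest fall of any member (log2 -0.50 ± 0.08, adjusted p = 6.83e-05). PSMD14, the deubiquitinase that removes ubiquitin chains before degradation, fell by 0.48 ± 0.07 on the log2 scale (adjusted p = 3.73e-05), from 243, 191 and 228 to 174, 154 and 161 CPM in shControl cells and from 166, 149.7 and 175 to 113, 121 and 105 CPM in shRNF113A cells. Hence the lowest PSMD14 levels of the study were those of depleted cells with the drug.

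In the core particle, 1 of 7 tested alpha genes rose and 1 fell, and 2 of 7 beta genes rose and 4 fell. PSMA3, the alpha subunit that fell, went from 199, 185 and 205 to 156, 140.5 and 147 CPM in shControl cells and from 186, 166 and 191 to 139, 139 and 142 CPM in shRNF113A cells (log2 -0.39 ± 0.05, adjusted p = 2.25e-05). PSMA6 was the alpha subunit that rose (log2 0.25, adjusted p = 0.00532). PSMB4 rose by 0.32 ± 0.07 (adjusted p = 0.000768). The beta subunits PSMB7, PSMB1, PSMB2 and PSMB3 fell, with log2 changes of -0.29 to -0.21. No assembly chaperone rose, and PSMG1 and PSMG2, the partners of one heterodimer that builds the alpha ring, both fell (log2 -0.24 and -0.33).

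**Figure D2:**
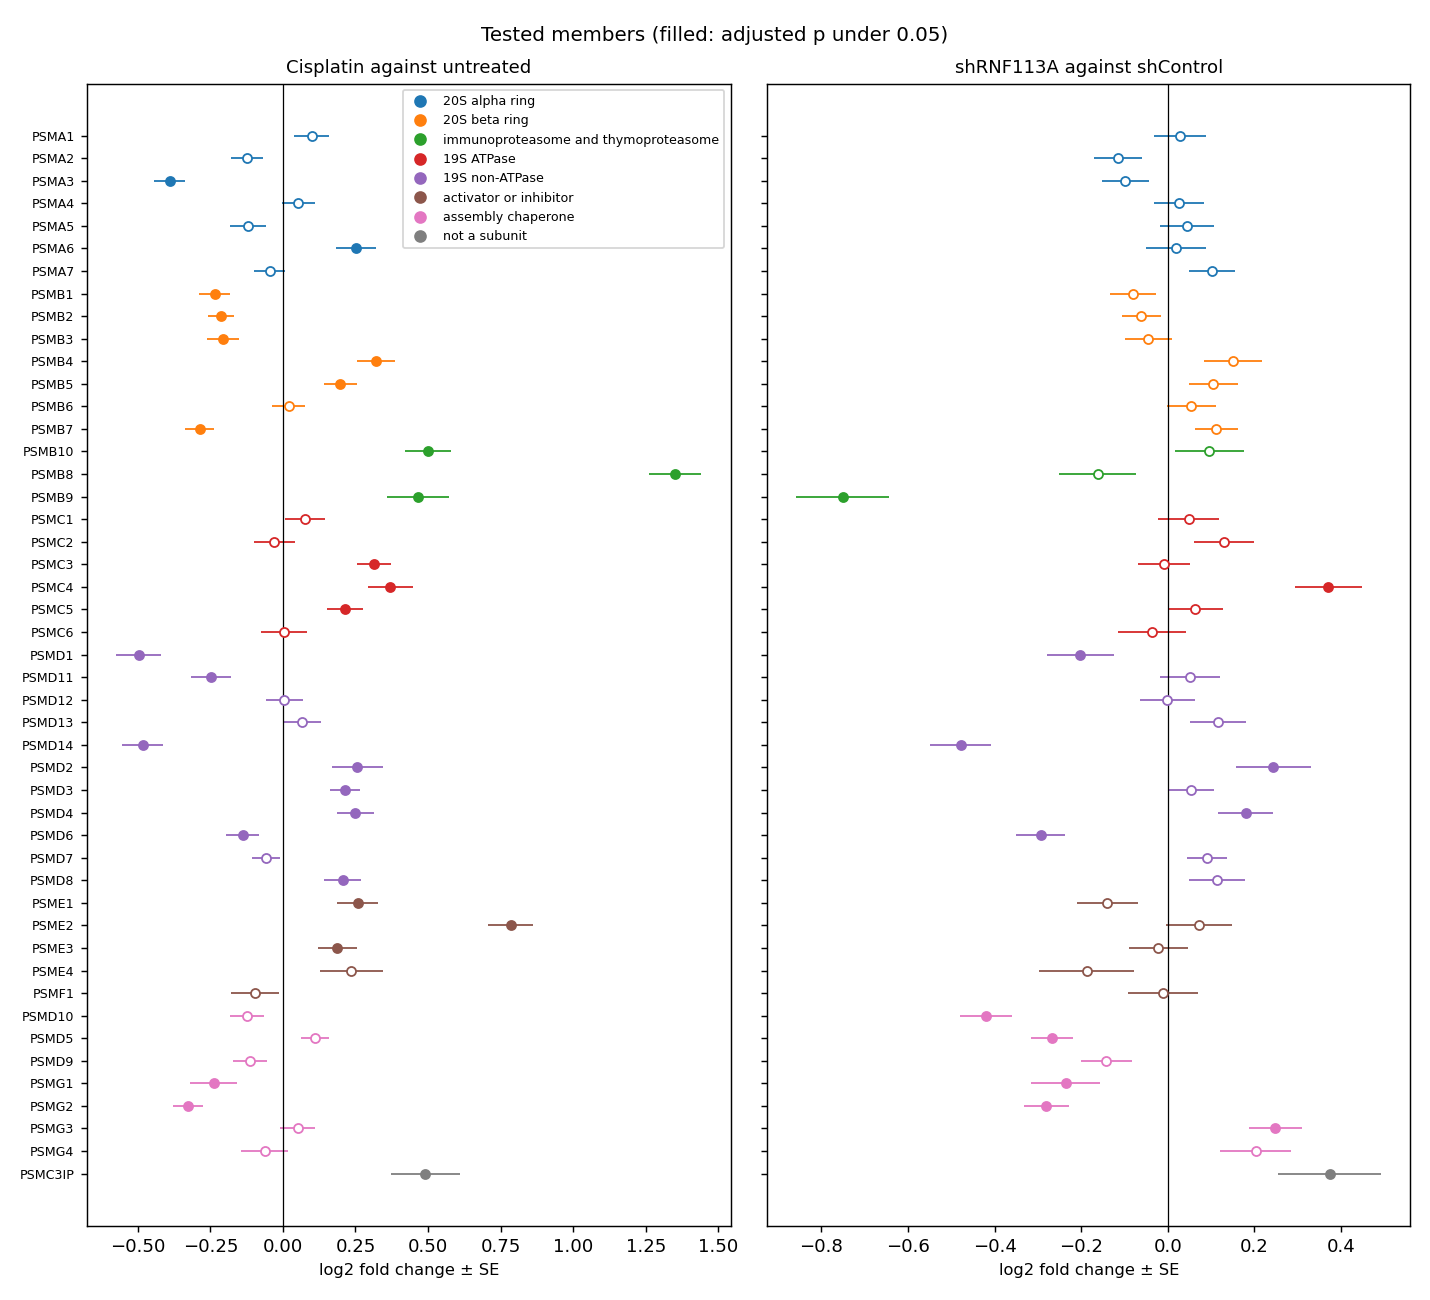
Log2 fold change of each tested member, grouped by role, for Cisplatin and for RNF113A depletion, with bars of ± 1 SE, colours for roles (20S is the core and 19S the regulatory particle) and filled points for members at an adjusted p under 0.05. The alternative catalytic subunits and PSME2 lie to the right for Cisplatin (0.47 to 1.35), whereas PSMB9, PSMD14 and PSMD10 lie to the left for depletion (-0.75 to -0.42).

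Taken separately by background, Cisplatin raised 9 and lowered 9 of the 47 members in shControl cells (19.1% each way, against 28.0% of all genes up and 27.0% down). In shRNF113A cells 16 rose and 11 fell (34.0% and 23.4%, against 32.4% and 27.8% of all genes). The library-size scaling gave 18 up and 4 down in shControl cells (33.3% and 22.1% of all genes) and 24 up and 7 down in shRNF113A cells (37.4% and 23.9%). The 9 members lower in shControl cells became 14 with DESeq2 or on exonic counts, and 5 without the third treated shControl library. The 16 higher in shRNF113A cells became 10 without the first treated shRNF113A library. Replicates of the same number deviated together in the shControl cells. When those 6 libraries were fitted alone, 11 members were called (5 up and 6 down) without the pairing and 21 (12 up and 9 down) with it, where 23.0% of 14719 genes rose and 22.3% fell without it and more with it (4560 and 4550 genes).

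The exchange of catalytic subunits was described by the ratio of each alternative subunit to the one it replaces. In untreated shControl cells there were 6.10, 8.43 and 7.10 PSMB8 reads per 100 reads of PSMB5, the chymotrypsin-like subunit, and with Cisplatin there were 13.9, 14.7 and 16.2. In shRNF113A cells the ratio went from 5.27, 5.84 and 5.53 to 13.1, 13.2 and 13.6. The groups did not overlap, with a ratio 2.07-fold higher in shControl and 2.40-fold higher in shRNF113A cells. PSMB10 per 100 reads of PSMB7, the trypsin-like subunit, was 1.58-fold higher with Cisplatin in shControl cells (15.3, 17.0 and 18.5 to 28.7, 24.7 and 26.5) and 1.89-fold higher in shRNF113A cells (13.9, 17.0 and 14.95 to 29.9, 25.9 and 31.01), again without overlap. For both pairs the exact two-sided permutation p was 0.10 in each background, the smallest that 3 libraries against 3 allow (0.133 after adjustment over 12 such tests).

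PSMB9 per 100 reads of PSMB6, the caspase-like subunit, was also compared with depletion. Untreated shControl cells had 4.16, 6.43 and 4.55 and untreated shRNF113A cells 2.98, 3.47 and 2.86. With Cisplatin the values were 7.52, 7.06 and 7.57 against 4.01, 4.47 and 3.42. The depleted cells were below their controls in both states, at 0.615 and 0.537 of the control ratio (exact permutation p = 0.10 each). The ratio of PSMB8 to PSMB5 was lower too, at 0.769 untreated and 0.892 treated, without overlap (exact permutation p = 0.10 each), and that of PSMB10 to PSMB7 was at 0.905 and 1.09 with overlapping groups (exact permutation p = 0.3 each). Whether the pairs differed from each other was not tested. The Cisplatin rise of the ratio of PSMB9 to PSMB6 was 1.46-fold in shControl cells (exact permutation p = 0.10), and in shRNF113A cells 1.28-fold with overlapping groups (exact permutation p = 0.2). These ratios are of reads and are not corrected for transcript length.

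**Figure D3:**
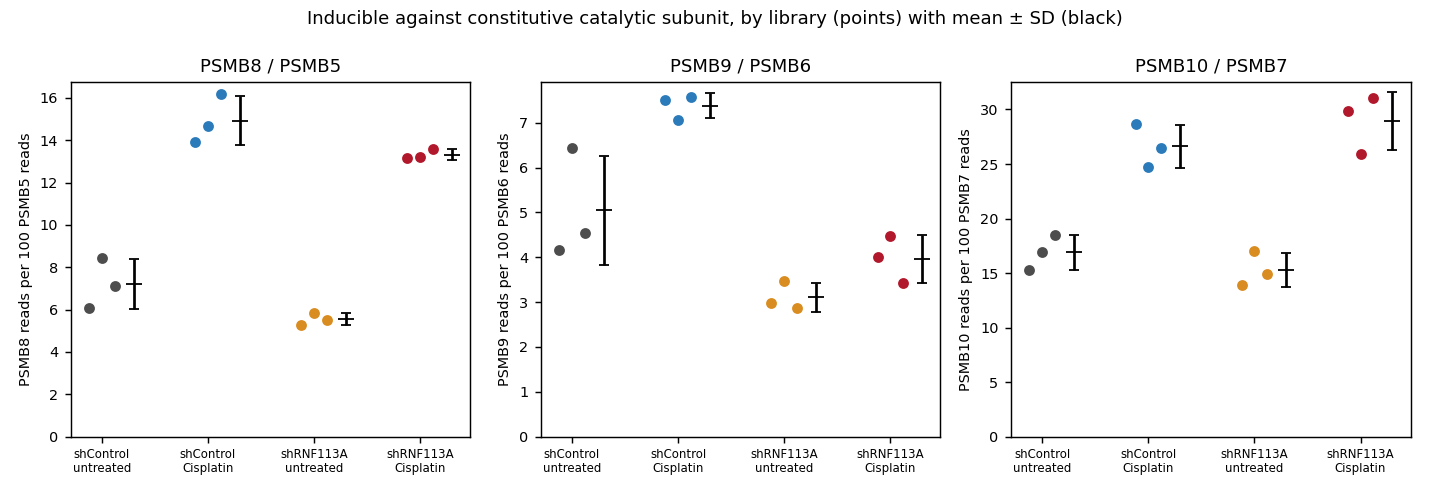
Reads of each alternative catalytic subunit per 100 reads of the constitutive subunit it replaces, with 1 point per library and the group mean ± SD. PSMB8 to PSMB5 averages 7.21 and 5.55 without and 14.9 and 13.3 with Cisplatin in shControl and shRNF113A cells, and PSMB9 to PSMB6 averages 3.10 and 3.97 in shRNF113A cells against 5.05 and 7.38 in shControl cells.

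RNF113A depletion changed fewer members. Over both drug states 5 of 47 rose and 8 fell (10.6% and 17.0%), where 23.5% of all genes rose and 24.0% fell. The 5 that rose became 2 or 3 when any one of the 6 Cisplatin libraries was left out. The median log2 change was 0.03 over the members and 0.00 in size over all genes. No member of the alpha ring, the beta ring or the activators was called. The called members lay in the regulatory particle (6 genes), the chaperones (5 genes) and PSMB9, together with PSMC3IP.

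PSMB9 had the largest fall with depletion. It was at 9.92, 16.2 and 11.6 CPM in untreated shControl and 7.25, 8.22 and 7.41 CPM in untreated shRNF113A cells, and at 18.3, 17.8 and 17.2 against 10.5, 10.9 and 9.58 CPM with Cisplatin. The depleted libraries were below the control libraries in both states, with a log2 change of -0.75 ± 0.11 (adjusted p = 0.000112). PSMD14 fell by 0.48 ± 0.07 (adjusted p = 0.00014), with the values given above.

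Of the 7 chaperones, 4 fell and 1 rose. PSMD10, also known as gankyrin, a chaperone of the ATPase ring, was at 107, 119.7 and 104 CPM in untreated shControl and 80.0, 74.3 and 89.1 CPM in untreated shRNF113A cells. With Cisplatin it was at 103, 101 and 95.2 against 72.5, 74.7 and 80.0 CPM. Depleted libraries were lower in both states without overlap (log2 -0.42 ± 0.06, adjusted p = 0.000112). PSMG2 fell by 0.28 ± 0.05 (adjusted p = 0.000777), from 62.6, 64.5 and 66.1 to 53.1, 48.9 and 54.1 CPM untreated and from 53.2, 51.0 and 47.1 to 42.2, 42.2 and 42.6 CPM with Cisplatin. PSMD5, another ATPase chaperone, and PSMG1 also fell (log2 -0.27 and -0.24). PSMG3, whose product pairs with that of PSMG4, rose by 0.25 ± 0.06 (adjusted p = 0.0047), from 59.4, 63.0 and 62.3 to 67.5, 71.9 and 71.3 CPM untreated and from 59.3, 68.3 and 56.1 to 76.9, 70.6 and 79.9 CPM with Cisplatin.

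In the regulatory particle, PSMC4 rose by 0.37 ± 0.08 (adjusted p = 0.00172). It was at 332, 273 and 350.0 CPM in untreated shControl and 366, 358 and 384 CPM in untreated shRNF113A cells, and at 378, 363 and 367 against 533, 493 and 569 CPM with Cisplatin. The separation was therefore wide with the drug and narrow without it. PSMC3IP also rose (log2 0.37 ± 0.12, adjusted p = 0.0195), from 24.2, 16.6 and 24.4 to 24.3, 24.3 and 24.4 CPM untreated and from 23.9, 31.9 and 23.4 to 40.0, 36.7 and 41.9 CPM with Cisplatin. The untreated groups overlapped, and the call was lost in 4 of 19 alternative fits (adjusted p = 0.061 on exonic counts). Among the non-ATPases, PSMD2 and PSMD4, a scaffold subunit and a ubiquitin receptor, rose by 0.24 and 0.18, and PSMD6 and PSMD1 fell by 0.29 and 0.20. The calls of PSMD2, PSMD4 and PSMD1 were each lost in 6 or more of the 19 fits.

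By drug state, depletion raised no member and lowered 7 of 47 in untreated cells (14.9%, against 14.6% of all genes lower and 12.8% higher). With Cisplatin it raised 5 and lowered 7 (10.6% and 14.9%, against 21.1% and 21.8% of all genes). The 5 raised became 2 without the first or the third treated shControl library, 3 without the first treated shRNF113A library and 8 on exonic counts.

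Whether depletion altered the response to Cisplatin was tested as the interaction. At an unadjusted p under 0.05 there were 9 members (edgeR), and the share of all genes at that limit was not computed. At an adjusted p under 0.05 no member passed, where 4.25% of all genes did, and DESeq2 called 1 member, PSMC6. This ATPase had the smallest interaction p of the tested members (log2 0.40 ± 0.11, adjusted p = 0.0626). It was at 159, 139 and 159 CPM without and 137, 129 and 132 CPM with Cisplatin in shControl cells, and at 126, 119 and 142 CPM without and 149.6, 153 and 145 CPM with it in shRNF113A cells. The treated libraries were thus lower in control and higher in depleted cells. The non-ATPase subunit PSMD12 had the same signs, with log2 changes of -0.15 and 0.16 and an interaction of 0.31 ± 0.09 (adjusted p = 0.0862). Without the second untreated shControl library, 5 members were called, namely PSMC6, PSMD12, PSMC4, PSMD2 and PSMC3IP. The share of all genes called in that fit is not given, so these 5 are not set against a background.

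Genes around the proteasome were counted from lists drawn up for the report. Of 8 antigen presentation genes, 5 rose and 3 fell with Cisplatin, where 34.8% of all genes rose and 32.1% fell. The largest rises were those of IRF1, a transcription factor that induces PSMB8 and PSMB9 after interferon (log2 2.25), and of the peptide transporter genes TAP1 (2.21) and TAP2 (1.11). Of the 3 that fell, NLRC5 averaged 4.94 CPM without and 2.74 CPM with Cisplatin in shControl cells (4.23 and 3.05 CPM in shRNF113A cells). TAPBP averaged 110 and 86.7 CPM in shControl cells (102 and 91.9 CPM in shRNF113A cells). B2M, the invariant chain of class I molecules, rose by 0.76 over both backgrounds (0.42 in shControl and 1.10 in shRNF113A cells). Of 12 further proteasome parts and partners, 2 rose and 8 fell with Cisplatin. ADRM1, a ubiquitin receptor of the regulatory particle, rose (log2 0.84, adjusted p = 6.2e-07), and POMP, the maturation protein of the core, fell (log2 -0.15, adjusted p = 0.0206). NFE2L1, the transcription factor that raises subunit genes when the proteasome fails, was at a log2 change of -0.00 with Cisplatin (adjusted p = 0.981) and rose by 0.28 with depletion (adjusted p = 0.00236). Its list of 5 control genes gave 1 up and 1 down with Cisplatin. The 5 shuttle genes gave 1 up and 2 down, and the 4 genes of ubiquitin and its activating enzymes 2 up and none down.

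The promoters of the members were searched for the letters TGACNNNGC on either strand, the known core of the element that NFE2L1 and its relatives bind. RefSeq promoters of GRCh38.p14, from 250 bases before to 50 after each start, were found for 43 of the 49 genes (53 promoters). The letters stood in 15 of the 53 (28.3%), and in 13.3% of all 35116 promoters. CCAAT, read on either strand, stood in 22 (41.5%), against 34.6% of all. The promoters of PSMC4 and PSMD1, a member that rose and one that fell with Cisplatin, are shown as examples that both hold the letters, which are in capitals and lie close to the start in both. PSMC4 is at chr19:39970915-39971214 and PSMD1 at chr2:231056617-231056916, both on the plus strand. A match of letters is a description and no measure of binding.
PSMC4 promoter: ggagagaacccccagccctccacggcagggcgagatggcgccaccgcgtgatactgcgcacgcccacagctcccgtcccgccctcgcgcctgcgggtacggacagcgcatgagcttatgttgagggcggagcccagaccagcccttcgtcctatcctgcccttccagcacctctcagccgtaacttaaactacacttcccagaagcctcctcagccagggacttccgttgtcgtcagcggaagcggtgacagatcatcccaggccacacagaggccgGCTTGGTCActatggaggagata
PSMD1 promoter: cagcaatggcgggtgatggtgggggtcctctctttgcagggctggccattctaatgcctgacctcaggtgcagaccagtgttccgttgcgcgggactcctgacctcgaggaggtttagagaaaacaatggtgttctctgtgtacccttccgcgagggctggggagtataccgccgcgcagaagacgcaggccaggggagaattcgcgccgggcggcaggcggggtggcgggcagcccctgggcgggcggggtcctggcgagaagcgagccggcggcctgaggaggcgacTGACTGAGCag

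Intronic reads were compared next, since RNF113A is a spliceosome protein. Intronic reads of a gene are those counted over the whole gene but not over its exons. Of the 49 members, 43 could be tested among 9557 genes, with PSMA6, PSMB10, PSMD2 and PSMD9 left out because a library had fewer reads over the gene than over its exons, PSMA8 because it had no reads, and PSMB11 because it has no intronic bases. No member passed the test as lower in the ratio of intronic to exonic reads. PSMC3IP had the log2 changes -0.54 (adjusted p = 0.0767) and -0.11 with Cisplatin in shControl and shRNF113A cells. Depletion raised it for 29 of 43 members in untreated cells (67.4%, against 34.3% of all genes) and for 43 of 43 with Cisplatin (100%, against 88.2%). Cisplatin raised it for 13 members in shControl cells (30.2%, against 18.5%) and for 41 in shRNF113A cells (95.3%, against 69.7%). The untreated count rested on single libraries, being 3 without the second and 16 without the first shRNF113A library, and 8 and 18 without the second and the third shControl library. The count over all genes moved as well. It was 3281 of 9557 with all libraries, 440 of 9565 without the second and 1440 of 9564 without the first shRNF113A library. Without the second and the third shControl library it was 928 of 9617 and 1945 of 9588. The count for Cisplatin in shControl cells ranged from 4 to 8 without any one of the untreated shControl libraries or without treated replicate 1 or 3, and was 25 without treated replicate 2. Over all genes it was 1038 of 9617 without untreated replicate 2 and 4374 of 9610 without treated replicate 2, against 1772 of 9557 with all libraries. In depleted cells with Cisplatin all 43 were raised whichever library was left out.

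The median log2 change of the ratio was 0.63 over the members and 0.47 over all genes for depletion in untreated cells, and 1.17 and 0.96 with Cisplatin. For Cisplatin it was 0.41 and 0.28 in shControl and 0.93 and 0.74 in shRNF113A cells. The members had more reads than other genes tested, with a median of 6140 exonic and 233 intronic reads per library against 1594 and 144, so that a change of a given size was easier to call. Summed over members, intronic reads made up 2.38% to 2.74% of the reads in untreated shControl libraries, 2.65% to 4.41% with Cisplatin, 3.37% to 4.04% in untreated shRNF113A libraries and 6.99% to 7.80% with both. The same shares over all genes were 4.33% to 4.82%, 4.67% to 7.19%, 5.76% to 6.65% and 9.99% to 10.4%. The share of reads not assigned to a gene, whatever the cause, was also highest in the 3 libraries with both, at 21.8% to 22.6%. Its part in the result was not tested.

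**Figure D4:**
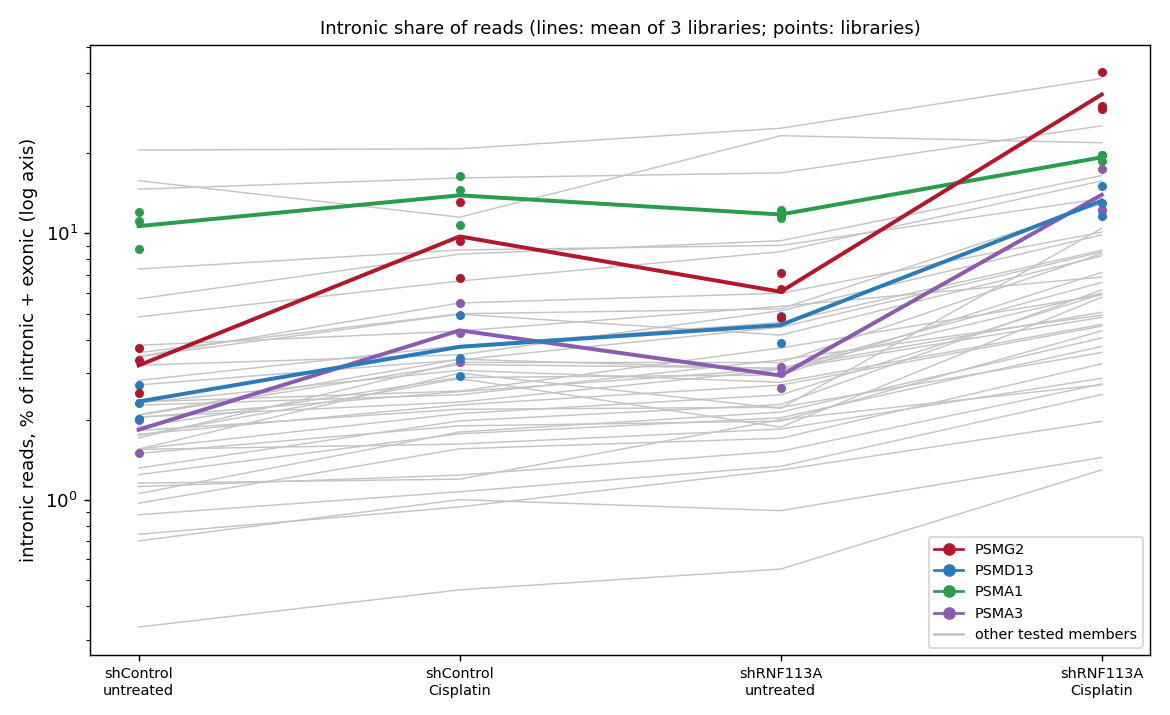
Intronic reads as a percent of intronic plus exonic reads, on a log axis against condition. Coloured lines join the means of PSMG2, PSMD13, PSMA1 and PSMA3, points are their libraries, and grey lines are the means of the other tested members. PSMG2 reaches 29.3% to 40.2% in the shRNF113A libraries with Cisplatin, against 2.52% to 3.72% in the untreated shControl libraries.

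Depletion with Cisplatin raised the ratio of PSMG2 most. Its intronic share was 3.72%, 2.52% and 3.36% in untreated shControl libraries and 9.38%, 6.78% and 13.1% with Cisplatin. It was 6.17%, 7.12% and 4.84% in untreated shRNF113A libraries and 30.1%, 29.3% and 40.2% with both. The groups formed an order without overlap except between untreated shRNF113A and treated shControl libraries, and the log2 change with depletion was 2.23 ± 0.25 in treated cells (adjusted p = 1.63e-06) and 0.96 ± 0.27 in untreated cells (adjusted p = 0.0154). PSMG2 (chr18:12658737-12725739, plus strand) overlaps a gene on its own strand, AP005482.1, over 4734 bases. By the study's methods, reads that could belong to more than 1 feature were not counted. The effect of the overlap on the intronic share was not tested.

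PSMD13 and PSMC2 followed. PSMD13, a non-ATPase subunit, had intronic shares of 2.01%, 2.31% and 2.70% in untreated shControl and 4.82%, 4.90% and 3.88% in untreated shRNF113A libraries. With Cisplatin the shares were 3.42%, 2.92% and 4.93% against 11.7%, 12.99% and 15.1%. Both steps separated the groups (log2 0.99 ± 0.21, adjusted p = 0.00573, and 1.99 ± 0.20). PSMC2, an ATPase, stood at 1.37%, 1.66% and 1.64% against 2.15%, 2.27% and 2.21% untreated and at 2.82%, 2.62% and 3.54% against 8.70%, 8.97% and 13.7% with Cisplatin (log2 1.89 ± 0.20 for the latter). The alpha subunit PSMA3 went from 4.22%, 3.30% and 5.47% to 12.2%, 12.2% and 17.4% with depletion in treated cells.

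In untreated cells the largest rises with depletion were those of PSMB3, PSMD13 and PSMC1. PSMB3, a beta subunit, had shares of 1.11%, 0.749% and 1.32% in shControl and 2.21%, 2.35% and 1.86% in shRNF113A libraries (log2 1.05 ± 0.25, adjusted p = 0.0086), and the call was lost without the second shRNF113A library. With Cisplatin they were 1.69%, 1.15% and 2.56% against 4.39%, 3.81% and 3.96%. The ATPase PSMC1 had 1.98%, 1.41% and 1.75% against 3.33%, 3.55% and 2.96% untreated (log2 0.96 ± 0.21, adjusted p = 0.00645), and 3.17%, 2.39% and 4.29% against 8.11%, 8.19% and 8.90% with the drug. The smallest changes with depletion were those of PSMB7 in untreated cells (log2 0.12, not called) and of PSME3, the nuclear activator PA28 gamma, with Cisplatin (0.53). By role in untreated cells, depletion raised 9 of 10 non-ATPases, 6 of 7 beta subunits, 5 of 6 ATPases, 4 of 6 chaperones, 3 of 6 alpha subunits, 1 of 5 activators and 0 of 2 alternative catalytic subunits.

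Single splicing events were then compared on the inclusion and skipping reads that rMATS counted for skipped exons, retained introns, alternative 5′ and 3′ splice sites and mutually exclusive exons. Calls required mean inclusion levels at least 20 percentage points apart and an adjusted p under 0.05 within the category and comparison. No member event was called in any comparison, among 490 tested for Cisplatin in shControl cells, 572 for Cisplatin in shRNF113A cells, 454 for depletion in untreated cells and 572 for depletion with Cisplatin. Of all events, 0.0681%, 0.283%, 0.058% and 0.172% were called in the same order. At an unadjusted p under 0.05 there were 41, 107, 43 and 135 member events, and the share of all events at that limit was not computed.

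Without the limit on the difference, 1, 35, 11 and 35 member events passed the adjusted p, or 0.204%, 6.12%, 2.42% and 6.12% of the member events tested, against 0.529%, 2.61%, 0.906% and 2.32% of all events. Small differences pass more easily where reads are many. Among genes tested for intronic reads, members had a median of 6140 exonic reads per library, against 1594 over all. The part of depth in these shares was not tested. For depletion with Cisplatin these included 13 retained introns, 12 of them higher, and 10 skipped exons, 8 of them with lower inclusion. The member events included 35 retained introns in 18 genes. Their inclusion was higher in shRNF113A than in shControl cells for 28 of 33 untreated (84.8%, against 78.6% of all 3434 retained introns) and 28 of 35 with Cisplatin (80.0%, against 82.6% of all 3541), whether called or not. Events of one gene share reads and are not separate evidence.

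The retained introns with the smallest adjusted p lie in PSME2, PSMA1 and PSMD13, and their sequences (GRCh37) show what was kept. The PSME2 intron spans chr14:24614675-24614918 on the minus strand (244 bases, 52.9% GC) and the PSMD13 intron chr11:244217-244425 on the plus strand (209 bases, 33.5% GC). Both are printed with 15 exon bases on each side and the first and last intron bases in capitals. The PSMA1 intron spans chr11:14535434-14535948 on the minus strand (515 bases, 31.1% GC) and is printed at its 5′ end with 15 exon and 45 intron bases and its first 8 intron bases in capitals, and at its 3′ end with 60 intron and 15 exon bases and the last intron bases in capitals.
PSME2 intron: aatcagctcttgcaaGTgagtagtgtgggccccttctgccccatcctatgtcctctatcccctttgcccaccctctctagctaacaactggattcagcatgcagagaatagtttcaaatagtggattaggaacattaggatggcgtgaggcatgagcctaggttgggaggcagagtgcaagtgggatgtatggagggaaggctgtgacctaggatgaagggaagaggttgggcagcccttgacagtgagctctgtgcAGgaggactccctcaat
PSMD13 intron: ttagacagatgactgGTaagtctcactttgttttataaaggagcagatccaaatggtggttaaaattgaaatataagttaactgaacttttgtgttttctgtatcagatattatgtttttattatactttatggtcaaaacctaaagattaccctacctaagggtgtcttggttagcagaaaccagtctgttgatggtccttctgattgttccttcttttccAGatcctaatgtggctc
PSMA1 intron, 5′ end: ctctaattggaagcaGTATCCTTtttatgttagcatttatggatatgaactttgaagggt
PSMA1 intron, 3′ end: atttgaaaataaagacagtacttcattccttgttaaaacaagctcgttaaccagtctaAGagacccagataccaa

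In PSMA1, an alpha subunit, 3.62%, 2.68% and 2.93% of transcripts kept the intron in untreated shControl libraries, and 5.21%, 5.76% and 6.79% in untreated shRNF113A libraries, a difference of 2.84 percentage points (adjusted p = 5.8e-05, edgeR). With Cisplatin the levels were 4.82%, 3.98% and 7.06% against 12.2%, 12.3% and 15.1%, 7.92 points apart (adjusted p = 7.83e-05). In the separate tables of the Cisplatin comparisons the same intron read slightly differently, at 4.97%, 4.06% and 7.19% and at 5.14%, 5.67% and 6.65% for treated shControl and untreated shRNF113A libraries, and the plot uses these. The depleted libraries were thus higher in both states. Over the whole gene the intronic ratio of PSMA1 did not pass the test in untreated cells (log2 0.17, adjusted p = 0.439) and rose by 0.59 with Cisplatin. PSMA1 overlaps COPB1 on its own strand over 6245 bases, and the effect of this on the whole-gene counts was not tested.

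In PSME2 and PSMD13 the intron was rarely kept without the drug. PSME2 had 0.711%, 0.312% and 0.1999% in untreated shControl and 0.702%, 0.910% and 0.428% in untreated shRNF113A libraries, which overlapped (adjusted p = 0.0977). With Cisplatin it had 1.05%, 0.591% and 1.66% against 3.52%, 3.50% and 4.36% (2.69 points, adjusted p = 5.18e-06). PSMD13 had 0.616%, 0.668% and 0.323% against 2.26%, 2.13% and 2.43% with Cisplatin (1.74 points, adjusted p = 8.85e-06), and 0.266%, 0.230% and 0.389% against 0.548%, 0.368% and 0.356% without it (adjusted p = 0.431). With the drug the depleted libraries of both genes stood above all others.

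**Figure D5:**
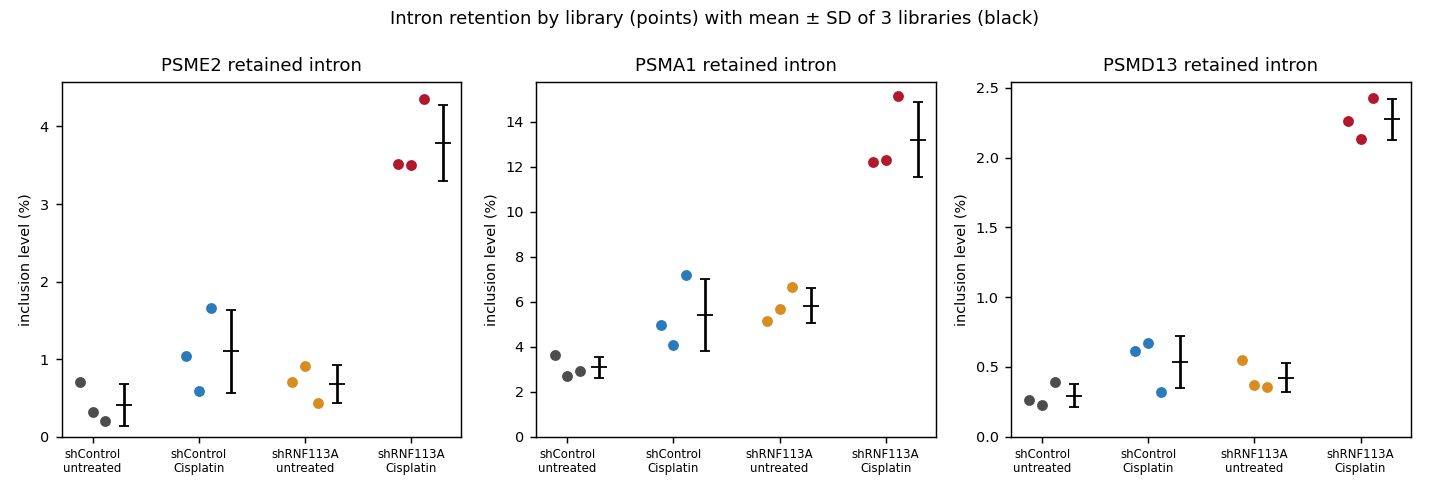
Inclusion level, in percent, of the retained introns of PSMA1, PSME2 and PSMD13 in each of the 12 libraries, with 1 coloured point per library and the mean ± SD of each condition in black. The shRNF113A libraries with Cisplatin are the highest in each panel, at 12.2% to 15.1%, 3.50% to 4.36% and 2.13% to 2.43%.

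The PSMA1 intron begins with GTATCCTT, the known consensus of introns removed by the minor, U12-type spliceosome. These letters were looked for after the sequence had been read, as GTATCCTT or ATATCCTT at the start of introns of protein-coding genes, on the strand of the gene. They opened 640 of 256619 introns (0.249%) and 1 of 594 introns of members (0.168%), which is the PSMA1 intron. Among the retained introns tested for depletion, 16 had the letters, including the PSMA1 intron that prompted the search. For depletion in untreated cells their median difference was 2.92 percentage points and 15 of 16 were higher, against 1.07 points and 2699 of 3434 over all. With Cisplatin it was 5.41 points and 15 of 16, against 1.97 points and 2925 of 3541. These are descriptions with no test, and they were not recomputed without the PSMA1 intron. The letters do not show which spliceosome removes an intron.

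Other event types moved by a few points. In PSMD2, 2 upstream 3′ splice sites, 76 and 53 bases before the main one, gained use in depleted cells with Cisplatin. They are shown with the last 2 intron bases of each site in capitals, the main site being the last (chr3:184019529-184019649, plus strand, GRCh37).
PSMD2 3′ splice sites: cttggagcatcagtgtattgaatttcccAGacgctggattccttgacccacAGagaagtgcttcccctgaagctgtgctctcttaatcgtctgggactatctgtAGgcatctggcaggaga
The first of them was used at 0.673%, 0.710% and 1.54% in treated shControl and 3.804%, 3.68% and 4.63% in treated shRNF113A libraries (3.07 points, adjusted p = 7.89e-09). In untreated cells it was at 0.881%, 0.605% and 0.169% against 0.989%, 1.18% and 0.919% (adjusted p = 0.563). The treated groups were well apart, whereas the untreated ones were close to each other but did not overlap. The second upstream site went from 0.613%, 0.481% and 1.17% to 2.502%, 2.81% and 3.79% in treated cells (2.28 points, adjusted p = 1.69e-06).

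Among skipped exons, depletion with Cisplatin lowered inclusion of a 41-base exon of PSMA6 (hg19 chr14:35782087-35782127) from 99.0%, 99.1% and 99.4% to 95.7%, 96.6% and 90.6% (adjusted p = 9.76e-06). A 75-base exon of the ATPase PSMC3 (chr11:47445660-47445734) went from 99.8%, 99.1% and 100% to 96.4%, 98.03% and 94.1% (adjusted p = 0.000163). A rarely used exon of the non-ATPase PSMD7 (chr16:74333474-74333643) went the other way, from 0.570%, 0.955% and 1.02% to 2.84%, 1.99% and 2.39% (adjusted p = 0.0119). In untreated cells the means of PSMA6 were 99.5% in both groups.

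In PSME2 an alternative 3′ splice site rose from 3.74%, 4.91% and 6.15% to 9.24%, 9.28% and 8.85% with depletion in treated cells (adjusted p = 0.00257). Over the same stretch of PSME2, 3 mutually exclusive exon events rose, the first from 3.29%, 4.44% and 5.85% to 8.80%, 8.65% and 8.28%. The second went from 13.1%, 12.6% and 14.5% to 18.95%, 18.1% and 18.04%, and the third from 11.6%, 14.02% and 16.6% to 25.7%, 24.4% and 23.7%. In all of them the treated shRNF113A libraries lay above the treated shControl ones.

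The largest differences past the adjusted p were those of PSMC3IP. An alternative 5′ splice site fell from 70.3%, 75.6% and 65.8% to 50.8%, 55.9% and 51.4% with depletion in treated cells (-17.9 points, adjusted p = 0.0335), and another from 100%, 98.03% and 100% to 91.1%, 88.4% and 91.9% (adjusted p = 0.0452). The other 2 that passed were higher. One went from 1.04%, 2.54% and 4.45% to 9.77%, 8.14% and 6.28% (adjusted p = 0.0165), and one from 6.32%, 4.11% and 7.42% to 17.9%, 19.2% and 19.6% (adjusted p = 1.8e-05). A retained intron of the same gene went from 9.48%, 6.22% and 11.4% to 24.5%, 25.6% and 26.2% (16.4 points, adjusted p = 0.000298). Of the reads over PSMC3IP, 29.9% lay on the opposite strand, where MLX overlaps it.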

How the data were processed

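RNA was sequenced from 12 A549 libraries (3 biological replicates in each of 4 conditions; stranded mRNA kit, paired reads). Per the labels and the study's methods, the authors ran bcl2fastq 2.17, cutadapt and Bowtie2, and aligned with STAR 2.5.2b to hg19. Genes were counted over the Illumina iGenomes annotation by STAR and over GENCODE protein-coding genes by HTSeq, and rMATS used an Ensembl annotation. The authors deposited STAR counts per gene, HTSeq counts over exons and over whole genes, and rMATS inclusion and skipping counts (target and junction reads). The columns of the authors' own comparisons in the splicing tables (p-values, FDR and inclusion differences) were not used.

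Expression was tested on the deposited STAR counts of the gene's strand with edgeR 4.0.16 in R 4.3.3 (TMM, filterByExpr, quasi-likelihood test, Benjamini-Hochberg over all genes tested, threshold 0.05) on all 12 libraries, with drug and depletion as terms. A model with their interaction gave that term and the effects in single conditions. CPM values are TMM-scaled, except those of cell type markers, which use library size alone. Intronic reads were whole-gene minus exonic HTSeq counts, which followed the gene's strand, tested against exonic reads with a term for each library, in genes with at least 10 of each in every library. Splicing events with at least 10 reads in every library were tested in the same way on inclusion and skipping reads. Ratios of catalytic subunits were compared by exact permutation (SciPy 1.17.1). Promoter sequences came from RefSeq (GRCh38.p14), and intron sequences from GRCh37, which matched the 24 chromosomes of the deposited annotation.

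The members, gene lists and tests were chosen with earlier results of these data known. Values in every library are given for the 3 largest rises and falls among called members of at least 10 CPM for Cisplatin and for depletion over both states, the catalytic subunits, the 3 largest changes in intronic ratio, and the 3 splicing events of smallest adjusted p per category. PSMC6, PSMD12 and the remaining PSMC3IP events were named after their values were seen. The values of 1 listed gene that is no member are not reported here. On simulated data the fits recovered 192, 196 and 166 of 200 changed genes for Cisplatin, depletion and the interaction (15352 genes). They made 12, 9 and 18 false calls in the same order. For the intronic ratio with depletion in untreated cells they recovered 119 of 200, with 0 false calls (9557 genes). For depletion with Cisplatin they recovered 170 of 200 retained introns, with 4 false calls (3541 events). Recovery at sizes of change other than those put in was not tested.

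Same-numbered shControl libraries with and without Cisplatin deviated together (r = 0.63, 0.73 and 0.48 over 9779 genes), so they were read as pairs from the data; no other pair of conditions exceeded 0.1 in all 3. Depth was 33859097 to 56071514 read pairs. Alternatives were unstranded or HTSeq counts, library-size scaling, other filters, DESeq2 1.42.0, the replicate block, other call limits and each library left out.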

Additional observations from a re-analysis of the deposited data

How the results depend on the processing

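Total counts of called members, both directions together, kept within 1.5 times of those given, except as follows; counts in 1 direction that moved further stand in the report. With a 2-fold limit they were 1 for Cisplatin, 1 in shControl and 1 in shRNF113A cells, and 0 for depletion over both states, in untreated and in treated cells. The interaction gave 1 member, PSMC6, under library-size scaling, under a minimum of 10 reads in every library and under DESeq2, and 0 to 5 with 1 library left out (5 without the second untreated shControl library). The shControl libraries alone with no replicate block gave 11 members, an alternative chosen after seeing the data; with the replicate block over all libraries the counts were 28, 13, 20, 29, 10, 11 and 0 (Cisplatin, depletion, Cisplatin in shControl and in shRNF113A, depletion untreated and treated, interaction), and the block changed no other call by as much. Leaving out 1 library moved the members with a raised intronic ratio from 4 (without shControl untreated replicate 2) to 25 (without shControl Cisplatin replicate 2) for Cisplatin in shControl cells, and from 3 (without shRNF113A untreated replicate 2) to 33 (without shControl Cisplatin replicate 3) for depletion in untreated cells, with 8 without shControl untreated replicate 2. For depletion in treated cells it was 43 throughout. Over all genes the raised ones went from 1038 of 9617 to 4374 of 9610 for the former. For depletion in untreated cells they went from 440 of 9565 to 5168 of 9561. Splicing events numbered 1, 35, 11 and 35 with no limit on the difference, 1 (untreated) and 4 (treated) for depletion at 10 points, and 0 to 1 for depletion in treated cells with 1 library left out. The counts at 10 points are of 454 and 572 member events. Of all events, 190 of 84421 (untreated) and 492 of 84798 (treated) passed at that limit. No paired analysis was possible for splicing because its libraries carry no replicate number. No named call reversed, but median log2 changes over the members, all near 0, changed sign in some fits, for example depletion from 0.03 to -0.02 without shControl Cisplatin replicate 2, Cisplatin in shControl from -0.02 to 0.08 by library size, depletion untreated from -0.03 to 0.01 without shControl untreated replicate 3, and, without shControl Cisplatin replicate 3, depletion treated from 0.05 to -0.02 and the interaction from 0.06 to -0.03. The causes were not tested. Intronic reads were few (a median of 233 per member and library).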
